A study of Mus musculus with 2 samples.

Results

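The genes described here are Cyp2f2, Cyp2t4, Alox15, Alox12e, Aldh3a1, Aqp3, Mlc1, Cpxm2, Tril and Ednrb, 10 of the 28693 genes listed in the deposited matrix, all matched by symbol. They were chosen because earlier results of the same data placed them in the stem-like cells of the pituitary. Their levels in those cells against the hormone-producing cells are therefore given as a description, without a test. The label under which they were grouped, oxidation enzymes and channels, covers 6 of them: Cyp2f2, Cyp2t4, Alox15, Alox12e and Aldh3a1 encode enzymes, and Aqp3 a channel. The other 4 encode membrane or secreted proteins. The study dispersed pituitary glands of male C57BL/6 mice aged 7 weeks, with no treatment or transgene named in the labels, as 2 pools of 3 glands, and profiled each pool as a library by droplet RNA sequencing. There was no second condition, so the comparisons are between cell classes of the same glands. The spread given is between pools and not between single animals.

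Sox2-expressing stem cells of the pituitary line the cleft between the anterior and intermediate lobes and are scattered in the anterior lobe, and they can give rise to the hormone cells. Cytochrome P450 enzymes such as Cyp2f2 add oxygen to small lipophilic molecules, lipoxygenases such as Alox15 add it to polyunsaturated fatty acids, and aldehyde dehydrogenases such as Aldh3a1 oxidise the aldehydes that lipid peroxidation leaves behind. Aqp3 carries water and glycerol, Mlc1 is a membrane protein of astrocytes that is mutated in a leukodystrophy with brain swelling, and Ednrb is a receptor for endothelins. Tril is an accessory protein of Toll-like receptors, and Cpxm2 belongs to a family of carboxypeptidase-like secreted proteins.

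Library 1 held 6546 barcodes and library 2 held 7117, of which 6011 and 6523 cells were used. A total of 54 barcode sequences occurred in both libraries. Cells were grouped on marker genes that leave out the 10 genes, and classes carry the ending "-like" because they were named from those markers. Stem-like cells numbered 158 in library 1 and 162 in library 2. Of their markers, Sox2 was detected in 84.2% and 83.3% of them, Sox9 in 68.4% and 59.9%, and Krt18 in 94.3% and 93.2%, while S100b, Gfra2 and Gfra3 were each in at most 1.27% of the cells in either library. The median stem-like cell had 8647 unique molecular identifiers (UMIs, 1 for each captured transcript), against 13195 in somatotrope-like and 4227 in macrophage-like cells. Levels are in CPM, the counts of a class relative to its total with totals scaled by TMM factors. A value after ± is the SD over both libraries (n = 2), except that after a log2 fold change it is the SE. The chemistry counts 1 end of each transcript, so levels were not divided by gene length.

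The promoters of 4 of the genes are shown because Alox12e and Ednrb were higher, and Aqp3 and Cyp2t4 lower, in a small division of the stem-like cells described further on, though for Cyp2t4 this rests on few cells. RefSeq's table held 8 of the 10, not Alox15 or Aldh3a1. Each window covers 250 bases before to 50 after RefSeq's start of transcription (GRCm38.p6, 5′ to 3′ on the gene's strand). Capitals mark a TATA box (TATAAA). For Ednrb and Mlc1 the window lies inside the gene as GENCODE places it, with a start further upstream. The windows are chr11:70322481-70322780 for Alox12e, chr14:103843652-103843951 for Ednrb and chr4:41098134-41098433 for Aqp3, all on the minus strand, and chr7:27153464-27153763 for Cyp2t4 on the plus strand.
Alox12e: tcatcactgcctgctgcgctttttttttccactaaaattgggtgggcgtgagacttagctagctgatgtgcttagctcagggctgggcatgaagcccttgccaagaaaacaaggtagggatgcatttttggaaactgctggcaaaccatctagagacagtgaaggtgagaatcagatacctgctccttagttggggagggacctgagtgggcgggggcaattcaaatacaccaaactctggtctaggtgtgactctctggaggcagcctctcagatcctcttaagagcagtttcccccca
Ednrb: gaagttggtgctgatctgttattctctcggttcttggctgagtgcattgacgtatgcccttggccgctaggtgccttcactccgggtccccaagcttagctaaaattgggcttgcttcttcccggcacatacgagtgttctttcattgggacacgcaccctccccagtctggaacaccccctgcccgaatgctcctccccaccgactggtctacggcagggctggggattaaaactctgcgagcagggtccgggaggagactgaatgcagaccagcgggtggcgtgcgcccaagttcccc
Aqp3: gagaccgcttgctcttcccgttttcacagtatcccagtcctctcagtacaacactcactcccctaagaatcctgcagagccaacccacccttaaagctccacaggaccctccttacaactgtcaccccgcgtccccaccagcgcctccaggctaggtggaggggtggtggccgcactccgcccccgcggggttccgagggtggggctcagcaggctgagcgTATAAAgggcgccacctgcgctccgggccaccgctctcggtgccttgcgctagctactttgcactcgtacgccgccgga
Cyp2t4: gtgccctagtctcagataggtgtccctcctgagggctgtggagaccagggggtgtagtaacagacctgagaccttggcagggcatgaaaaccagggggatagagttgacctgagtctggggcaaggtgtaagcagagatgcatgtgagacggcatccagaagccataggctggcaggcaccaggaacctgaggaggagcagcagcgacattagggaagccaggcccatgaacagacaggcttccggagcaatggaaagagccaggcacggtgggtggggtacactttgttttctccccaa
All letters were searched on both strands and anywhere in the window. The TATA box letters were found in Aqp3 alone among the 8 and in 13.6% of all 32851 promoters of this length. AACAAT, letters bound by SOX factors, was in 0 of the 8 and in 10.7% of all. GGAATG, a TEAD motif, was in 1 of the 8 (Cpxm2) and in 14.7% of all, and TGGGAA, an RBPJ motif, was in 2 (Tril and Mlc1) and in 25.6% of all. The GC content of the 8 windows ranged between 49.7% and 66.0%, with a median of 58.0%, beside a median of 52.7% over all promoters. These are matches of letters in short windows, and binding was not measured.

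The 10 genes lie on 6 chromosomes, and 4 of them form neighbouring pairs (GENCODE M21 on the GRCm38 assembly, the mm10 build the authors used). Cyp2f2 (chromosome 7, 27119909 to 27133660) and Cyp2t4 (27153714 to 27158668) are on the plus strand, 20053 bases apart. Alox12e (chromosome 11, 70315610 to 70322628) and Alox15 (70344152 to 70352031) are on the minus strand, 21523 bases apart. Aldh3a1 is also on chromosome 11 (61207537 to 61218421) and Cpxm2 on chromosome 7 (132032687 to 132154739). The others are Aqp3 on chromosome 4 (41092722 to 41098183), Mlc1 on 15 (88955884 to 88979007), Tril on 6 (53815468 to 53820830) and Ednrb on 14 (103814625 to 103844402). Cyp2t4 overlaps Egln2 on the other strand, and the counting is not stated to use strand, so reads of the 2 genes may be mixed. Egln2 had 132 CPM in stem-like cells and 50.6 CPM over the hormone classes. Cyp2t4 had 1.73 CPM over the hormone classes, or 0.16 CPM over those without gonadotrope-like cells. Mixing of reads was not tested. The other overlapping genes, among them Fgfr2 beside Cpxm2 on the same strand (9.86 CPM) and antisense transcripts of Cyp2f2, Cpxm2 and Tril, were at or under 9.86 CPM in stem-like cells.

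Among the P450 genes, Cyp2f2, the club cell enzyme of the lung, was by far the most abundant of the 10. It had 865 CPM in library 1 and 887 CPM in library 2 in stem-like cells. The mean was 876 ± 15.8 CPM in stem-like cells and 13.6 CPM over the 5 hormone classes, or 2.58 CPM over those without gonadotrope-like cells, in which 31 cells described further on hold almost all of its UMIs. It was found in 93.8 ± 1.66% of stem-like cells, at a mean of 14.2 UMIs per positive cell. Cyp2t4, a P450 of the same gene cluster, had 76.8 CPM in library 1 and 99.8 CPM in library 2 in stem-like cells. It was found in only 20.02 ± 2.12% of them, but at 6.70 UMIs per positive cell and up to 46 in a single cell. Cyp2t4 was thus the least often detected of the 10, with more UMIs per positive cell than any but Cyp2f2.

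The lipoxygenase Alox15 had 55.9 and 73.8 CPM in stem-like cells of library 1 and library 2, and Alox12e had 74.4 and 74.3 CPM. They were detected in 37.8 ± 3.31% and 35.0 ± 5.04% of stem-like cells. Aldh3a1 had 187 and 171 CPM and was detected in 69.7 ± 1.67%. No UMI of Cyp2t4, Alox15 or Alox12e was counted in the 55 pituicyte-like, 291 endothelial-like, 138 fibroblast-like or 145 macrophage-like cells. A count of 0 allows a share of up to 5.45%, 1.03%, 2.17% and 2.07% of these cells with a UMI, for counting error only. Aqp3 also had no UMI in these 4 classes.

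Aqp3, the glycerol channel, had 139 and 146 CPM in stem-like cells of library 1 and library 2 and was detected in 59.97 ± 3.36% of them. Mlc1 had 110 and 136 CPM there and Ednrb 119 and 97.8 CPM, in 65.6 ± 0.61% and 56.6 ± 4.09% of cells. Tril had 80.0 and 101 CPM in 55.9 ± 2.99% of cells, and Cpxm2 had 189 and 190 CPM in 81.6 ± 3.65%. In the order of levels, Cyp2f2 stood first, followed by Cpxm2 (190 ± 0.52 CPM), Aldh3a1 (179 ± 11.7), Aqp3 (142 ± 5.18), Mlc1 (123 ± 17.9), Ednrb (108 ± 14.7), Tril (90.3 ± 14.6), Cyp2t4 (88.3 ± 16.3), Alox12e (74.3 ± 0.07) and Alox15 (64.8 ± 12.7). The libraries overlapped between Mlc1 and Ednrb, Ednrb and Tril, and Tril and Cyp2t4, so these neighbours did not differ beyond their spread.

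**Figure D1:**
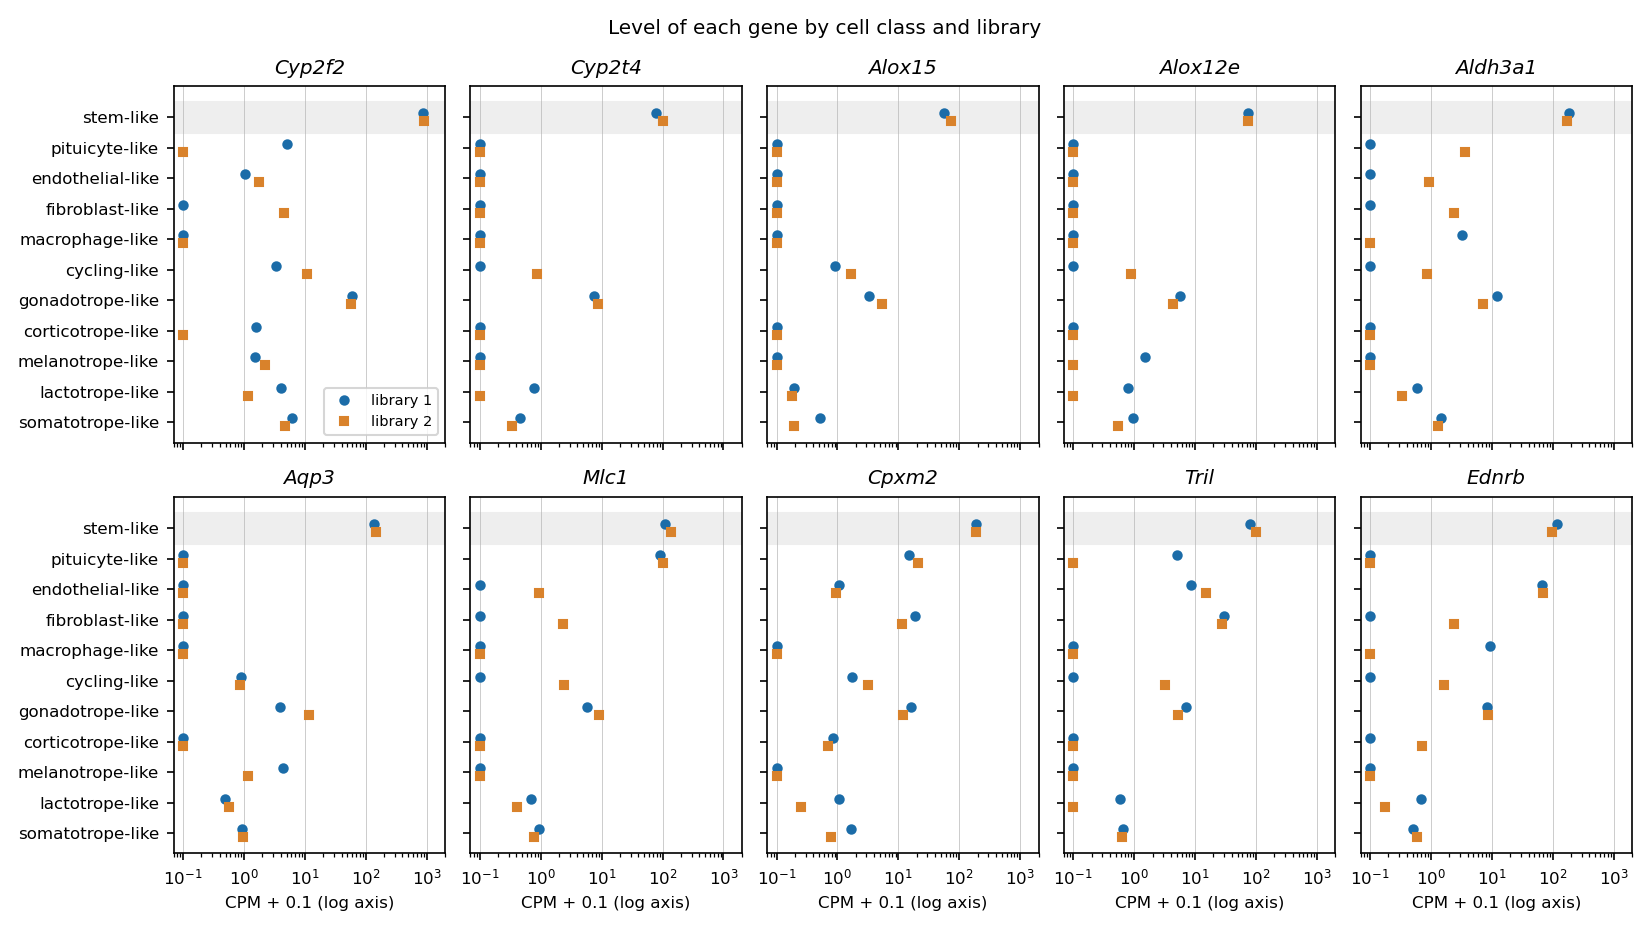
Level of each of the 10 genes in CPM (log axis, 0.1 added so that 0 can be drawn) in the 11 cell classes, with 1 circle for library 1 and 1 square for library 2. Every gene is highest in stem-like cells (shaded); Mlc1 is also high in pituicyte-like cells (95.4 CPM), Ednrb in endothelial-like cells (68.8 CPM) and Tril in fibroblast-like cells (28.3 CPM).

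Depth sets how often a gene is seen in a cell. With each cell thinned to 2000 UMIs outside the 7 hormone genes, Cyp2f2 was detected in 82.3 ± 0.50% of stem-like cells, Cpxm2 in 37.6 ± 1.28% and Aldh3a1 in 35.9 ± 5.44%. The lowest thinned share was that of Cyp2t4, 11.7 ± 0.19%. In macrophage-like cells, which do not belong to this lineage, the thinned share of Cyp2f2 was 0% and the highest of the 10 was 1.72%, for Ednrb. In somatotrope-like cells, the most common class, the thinned shares of the 10 lay between 0% for Alox15 and 0.72% for Cyp2f2. The stem-like shares were above these levels for every one of the 10.

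Some of the 10 genes were also found in supporting cell types. The supporting classes were each tested against the mean of the other 3, a comparison that leaves out the stem-like and hormone cells by which the genes were chosen. Each p was adjusted by Benjamini and Hochberg's method over the 12495 genes that edgeR's quasi-likelihood fit tested. The classes were built from the same cells, by markers that hold none of the 10, so these p-values compare clusters over 2 pools. Cyp2t4, Alox15, Alox12e and Aqp3 had no UMI in the 4 classes, and Cyp2f2 and Aldh3a1 had 0 to 3 in each. These 6 genes were in the fit through their stem-like counts, their test here is void, and nothing is read from it. Counts are therefore of the other 4, Mlc1, Cpxm2, Tril and Ednrb. These 4 were kept because they had more UMIs in these classes, so the shares of all genes are no matched background for them. The counts of all 10 are given beside them, since the shares of all genes also hold genes that entered through other classes. None of the 4 was called lower in any of these classes, beside 9.12% of all genes in pituicyte-like, 7.85% in endothelial-like, 4.98% in fibroblast-like and 6.94% in macrophage-like cells.

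Pituicytes are glial cells of the posterior lobe. In pituicyte-like cells 2 of the 4 genes, and 2 of all 10, were higher, Mlc1 and Cpxm2, where 9.46% of all genes tested were higher. Mlc1 had 89.5 CPM in library 1 and 101 CPM in library 2, and at most 2.26 CPM in either library of the other supporting classes. Its log2 fold change was 8.48 ± 0.68 (SE, adjusted p = 1.92e-20). The stem-like level of Mlc1 was 1.29 times the pituicyte-like level, at 123 ± 17.9 CPM in stem-like cells and 95.4 ± 8.41 CPM in pituicyte-like cells. The libraries did not overlap, though the pituicyte-like level rests on 18 and 29 UMIs. The thinned share of cells with a Mlc1 UMI was 27.7 ± 3.84% in stem-like cells and 24.2 ± 8.57% in pituicyte-like cells, and here the libraries overlapped. Cpxm2 had 14.9 and 20.97 CPM in pituicyte-like cells, from 3 and 6 UMIs, and stem-like cells had 10.6 times as much. Its log2 fold change over the mean of the other supporting classes was 4.62 ± 1.16 (edgeR, adjusted p = 0.00148). The pituicyte-like levels overlapped the 18.8 and 11.3 CPM of fibroblast-like cells, so Cpxm2 was not higher than in that class. Of the pituicyte markers, Rax and Scn7a were found in 86.4% and 95.5% of pituicyte-like cells of library 1. Gfap was in only 4.5% and Hes5 in 0% of those cells.

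In endothelial-like cells 1 of the 4 genes, and 1 of all 10, was higher, Ednrb, where 17.7% of all genes were. Ednrb had 67.3 CPM in library 1 and 70.3 CPM in library 2 (log2 fold change 6.91 ± 0.60, adjusted p = 3.41e-18). Stem-like cells had 1.57 times that level, and the libraries did not overlap. The thinned share of cells with an Ednrb UMI was 20.6 ± 7.15% in stem-like cells and 16.4 ± 3.60% in endothelial-like cells, and here the libraries overlapped. Tril had 8.53 and 15.2 CPM in endothelial-like cells and missed the threshold there (log2 fold change 3.30 ± 1.29, adjusted p = 0.0521).

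In fibroblast-like cells 2 of the 4 genes, and 2 of all 10, were higher, Tril and Cpxm2, where 11.2% of all genes were. Tril had 29.6 CPM in library 1 and 27.1 CPM in library 2 (log2 fold change 4.93 ± 1.02, adjusted p = 1.78e-04). Cpxm2 had 18.8 and 11.3 CPM there, from 7 and 5 UMIs (log2 fold change 4.18 ± 1.11, edgeR, adjusted p = 0.00297). These levels overlapped those of pituicyte-like cells. In macrophage-like cells 0 of the 4 genes, and 0 of all 10, were higher by edgeR's quasi-likelihood test, where 14.4% of all genes were. At an unadjusted p under 0.05, 0 were higher and 2 lower (Tril and Cpxm2), and DESeq2 called 0 in either direction.

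Gonadotrope-like cells, which make luteinizing and follicle-stimulating hormone, were the class with the second highest level of 6 of the 10 genes, the 5 oxidation enzymes and Aqp3. The levels of the 10 genes in that class were between 5.26% and 9.05% of the stem-like level, a narrow range. Cyp2f2 had 58.7 and 57.1 CPM there in library 1 and library 2. Almost all of these UMIs came from 31 cells, 14 in library 1 and 17 in library 2, which a second clustering on variable genes, without the markers and the 10 genes, placed with the stem-like cells. They held between 93.3% (Ednrb) and 100% (Cyp2t4 and Tril) of the class's UMIs of each gene. Without them the level of Cyp2f2 in gonadotrope-like cells was 1.39 ± 0.13 CPM, and that of each of the other 9 was at or under 0.62 CPM.

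The 31 cells carried transcripts of both types. All 31 had Lhb and Fshb UMIs, 83.9% had Gnrhr, the receptor for gonadotropin-releasing hormone, and 83.9% had Sox2. In CPM without scaling, Cyp2f2 was at 696 in the 31 cells, 1.56 in the other 574 gonadotrope-like cells and 1216 in stem-like cells. Lhb was at 16398 in the 31 cells, 45860 in the other gonadotrope-like cells and 335 in stem-like cells. Their median depth was 18972 UMIs and their median doublet score 0.165, against 10052 UMIs and 0.0555 in the other gonadotrope-like cells. Stem-like cells had a median score of 0.106. Whether the 31 are single cells or pairs of cells in 1 droplet was not tested.

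The number of the 10 genes found in each cell is a description, since detection by class was used to choose them. Without thinning, 272 of the 320 stem-like cells (85.0%) had at least 4 of the 10 genes, 5 had all 10, and 10 had none. The number 4 was chosen after the data were seen. Of the other classes, 30 of 605 gonadotrope-like cells (4.96%) had at least 4, as did 12 of 5757 somatotrope-like (0.208%), 2 of 3236 lactotrope-like and 1 of 228 cycling-like cells. There were 0 among the 511 corticotrope-like and 249 melanotrope-like cells and 0 in the 4 supporting classes. Of the 1031 cells removed as likely doublets, 32 had at least 4. Depth moved with the number: stem-like cells with 0 of the genes had a median of 4140 UMIs, those with 4 had 6040 and those with 9 had 17636.

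**Figure D2:**
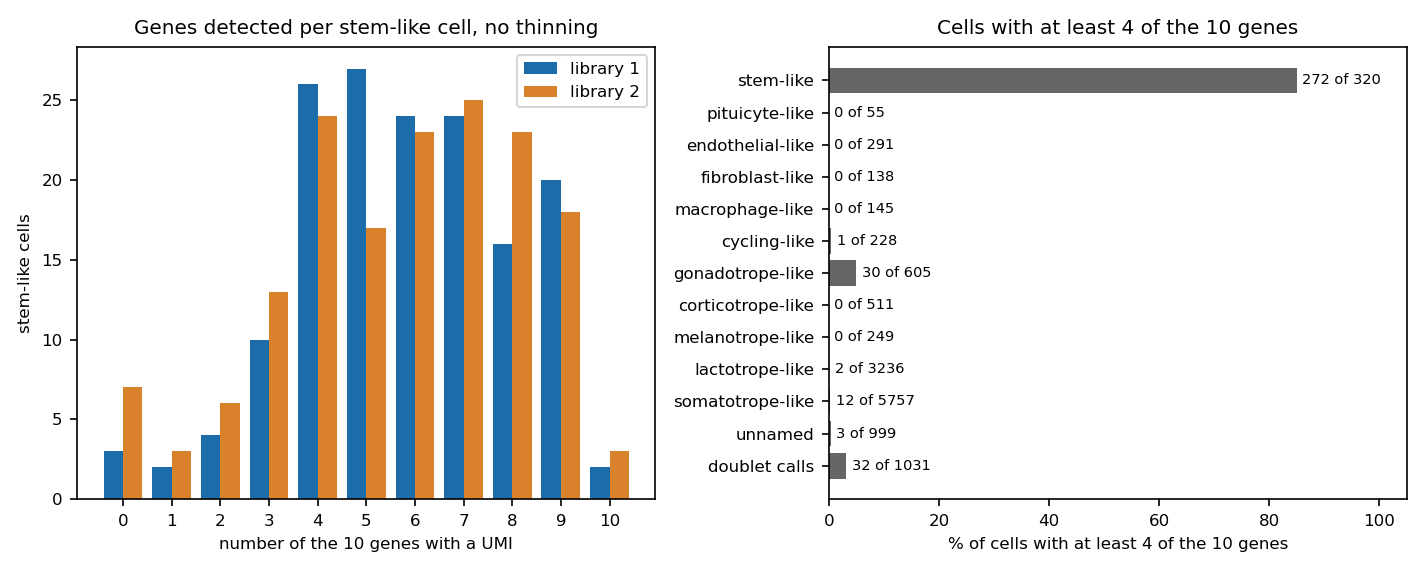
Left, number of stem-like cells (y axis) by how many of the 10 genes had a UMI (x axis), without thinning, for library 1 and library 2. Right, percent of cells of each class with at least 4 of the 10 genes, with the counts beside each bar; 272 of 320 stem-like cells and 30 of 605 gonadotrope-like cells reach it.

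A Sox2 UMI was found in 542 cells, 259 in library 1 and 283 in library 2. Of these, 268 were stem-like, 114 somatotrope-like, 39 gonadotrope-like, 34 melanotrope-like, 34 corticotrope-like and 19 pituicyte-like. Of the 268 stem-like cells with Sox2, 262 had at least 1 of the 10 genes. Of the 39 gonadotrope-like cells with Sox2, 28 had at least 1 and 26 had 4 or more. Of the 114 somatotrope-like cells with Sox2, 16 had at least 1 and 7 had 4 or more. None of the 34 melanotrope-like cells with Sox2 had any, which allows a share of up to 8.82%, and 1 of the 34 corticotrope-like cells had at least 1. Sox2 was in 13.7% of melanotrope-like cells, at 1.18 UMIs per positive cell, and in 0 of 291 endothelial-like and 0 of 145 macrophage-like cells. In stem-like cells with Sox2 it averaged 4.17 UMIs. Of the 19 pituicyte-like cells with Sox2, 16 had at least 1 of the 10 genes and 0 had 4 or more.

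In cells with a Sox2 UMI, thinned to 2000 UMIs, a mean of 1.78 ± 0.02 of the 10 genes was detected, against 0.0312 ± 0.0020 in cells without one. These are 535 and 11496 cells deep enough to thin. Sox2 cells of the stem-like class had 3.10 ± 0.14, and stem-like cells without a Sox2 UMI had 2.39 ± 0.12. After thinning, Ednrb was detected in 22.1 ± 7.09% of stem-like cells with Sox2 and 12.5 ± 6.86% of those without, with libraries that overlapped. Before thinning the shares were 62.7 ± 3.83% with Sox2 and 25.1 ± 4.09% without. The thinned share of Cyp2f2 was 83.2 ± 1.41% with Sox2 and 77.3 ± 4.85% without. Only 52 stem-like cells had no Sox2 UMI, of which 49 were deep enough to thin.

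Within the 268 stem-like cells with Sox2, each pair of genes was compared with the product of its 2 shares, after thinning, so that a ratio of 1 is what unlinked detection gives. Over the 45 pairs the median ratio was 1.06 in these cells and 1.75 in all cells with a Sox2 UMI, where 42 pairs were above 1 in both libraries. In the stem-like cells the ratio was above 1 in both libraries for 21 pairs, below 1 in both for 7 and on different sides for 17. The highest was that of the 2 lipoxygenases, Alox15 and Alox12e, at 2.68, with 1.90 in library 1 and 3.38 in library 2. Both were in 6 of 133 cells of library 1 and 12 of 135 cells of library 2. Alox12e and Ednrb followed at 2.20 (2.29 and 2.05), and Alox15 and Ednrb at 1.89 (1.66 and 2.20). The lowest ratio was that of Aqp3 and Ednrb, at 0.34 (0.38 and 0.27), with 6 cells in all that had both. Cyp2f2 was detected in 112 of 133 and 111 of 135 of these cells, so its ratio with any gene cannot be far above 1, and that with its neighbour Cyp2t4 was 1.06. These ratios are descriptions without a test.

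**Figure D3:**
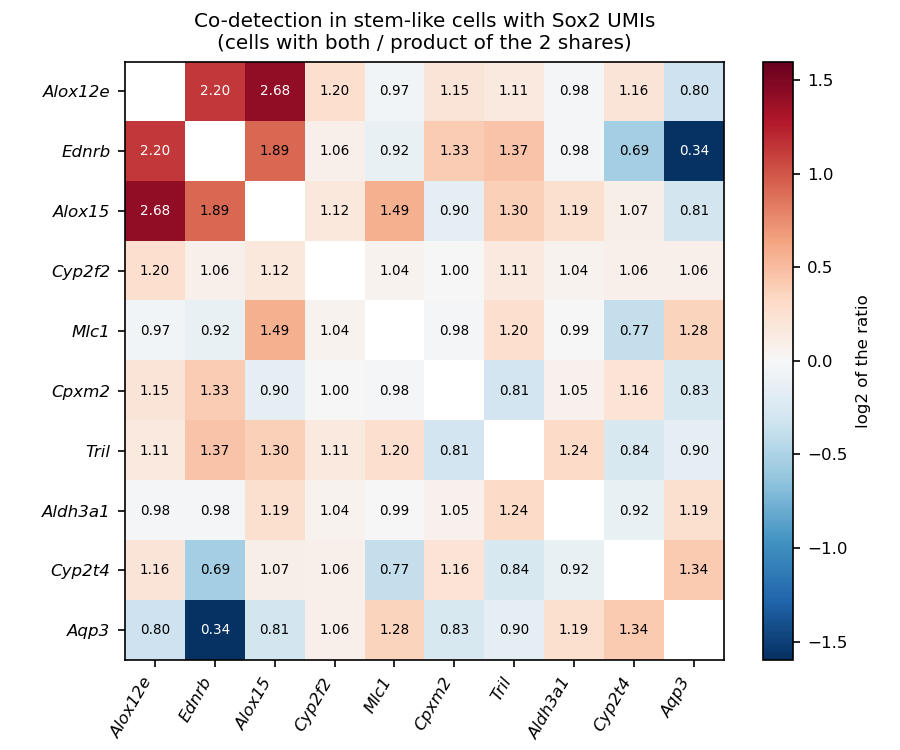
Ratio of cells in which both genes were detected to the product of the 2 shares, for the 45 pairs of the 10 genes in 268 stem-like cells with Sox2 UMIs, thinned, both libraries together (colour, log2 of the ratio). Alox12e, Ednrb and Alox15 form the block with high ratios, between 1.89 and 2.68, and Aqp3 with Ednrb has the lowest, 0.34.

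The stem-like cells were then divided on 500 variable genes, without the 10 genes and the markers, which gave 5 divisions. The smallest, 19 cells of library 1 and 8 of library 2, was led by Fxyd3, Mfge8, Cp, Pdlim1 and S100a6, and had Tshb among its 10 leading genes. Its median depth was 5766 UMIs. Fxyd3 was in 19 of its 27 cells and in 13 of the other 293 stem-like cells. Sox2 was at 363 ± 21.3 CPM of UMIs outside the hormone genes in these cells and at 344 ± 0.97 in the other stem-like cells, and Epcam, an epithelial adhesion molecule, at 852 ± 88.4 and 1052 ± 48.3. Of the 8 pituicyte markers, 5 had no UMI in the 27 cells, and the other 3, Col25a1, Adm and Gfap, were each in 1 cell. Hes5, among the 5, had no UMI in pituicyte-like cells either, and Gfap was rare there, so neither is informative here.

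Between the Fxyd3-led and the other stem-like cells, 4 of the 10 genes were higher, 4 were lower and 2 were at like levels. Alox12e was at 745 and 534 CPM of UMIs outside the hormone genes in the Fxyd3-led cells of library 1 and library 2, and at 61.0 and 85.8 in the other stem-like cells, a ratio of 8.71. Ednrb was at 478 and 556 in the Fxyd3-led cells and at 155 and 122 in the others, a ratio of 3.74. Alox15 was at 316 and 167 in the Fxyd3-led cells and at 65.6 and 107 in the others, a ratio of 2.79. This rests on 39 and 15 UMIs in 12 Fxyd3-led cells. The share of cells with Alox15 differed less, at 42.1% and 50.0% in the Fxyd3-led cells and 34.5% and 39.6% in the others. Cyp2f2 was 1.64 times as high in the Fxyd3-led cells, and Sox9, a transcription factor of stem cells, 2.14 times. For each of these 5 genes the libraries of the 2 groups did not overlap.

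Aqp3, Cyp2t4, Aldh3a1 and Tril were lower in the Fxyd3-led cells. Aqp3 was at 32.4 in library 1, from 4 UMIs, and at 0 in library 2 in the Fxyd3-led cells, and at 224 and 231 in the others. Cyp2t4 was at 0 and 33.4, from 3 UMIs of 1 cell, in the Fxyd3-led cells and at 125 and 156 in the others. Aldh3a1 was at 72.9 and 44.5, from 9 and 4 UMIs, in the Fxyd3-led cells and at 300 and 268 in the others, a ratio of 0.21. Tril was at 64.8 and 44.5, from 8 and 4 UMIs, in the Fxyd3-led cells and at 125 and 157 in the others, a ratio of 0.39. Mlc1 (ratio 1.004) and Cpxm2 (ratio 1.10) were at like levels, with libraries that overlapped. Aldh1a2, the enzyme that makes retinoic acid, was at 0 and 156 in the Fxyd3-led cells and at 654 and 649 in the others.

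In 4 other divisions of the same cells, chosen after seeing the data, the Fxyd3-led cells numbered between 23 and 29. With 12 components only 20 of the 29 were among the 27 cells above, and Sox9 in library 1 was at 201 against 185. Only 5 cells were of library 2 there and at the lower resolution. The ratio of Alox12e in the Fxyd3-led cells lay between 6.95 and 10.2 and that of Ednrb between 3.82 and 4.64. That of Aqp3 lay between 0.07 and 0.11. The ratio of Cyp2t4 lay between 0 and 0.52, and at 0.52 (12 components) Cyp2t4 was higher in the Fxyd3-led cells of library 1, 140 against 113. Its low level there rests on few cells. Of the other 4 divisions, 1 was led by Nr4a3 and other immediate early genes, and there Cyp2f2 was at 763 ± 118 CPM of UMIs outside the hormone genes. Another was led by Hspa1a, Ier2, Jun and Fos, also stress and immediate early genes, and there Cyp2f2 was at 1426 ± 112. Cyp2f2 was at 1705 ± 32.2 in the largest division, led by Igfbp2, where Cyp2t4 was also at its highest, 229 ± 41.4. The remaining division, 52 cells with a median of 15263 UMIs, was led by Pomc, Gh, Dlk1, Chgb and Prl. Gh made up over 1% of the UMIs in 59.6% of its cells, against 27.4% to 48.1% in the other divisions. Cyp2f2 was at 1120 ± 219 there and was detected in 86.2% and 65.2% of its cells in library 1 and library 2. The divisions were made from the same cells, so none of these differences was tested.

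**Figure D4:**
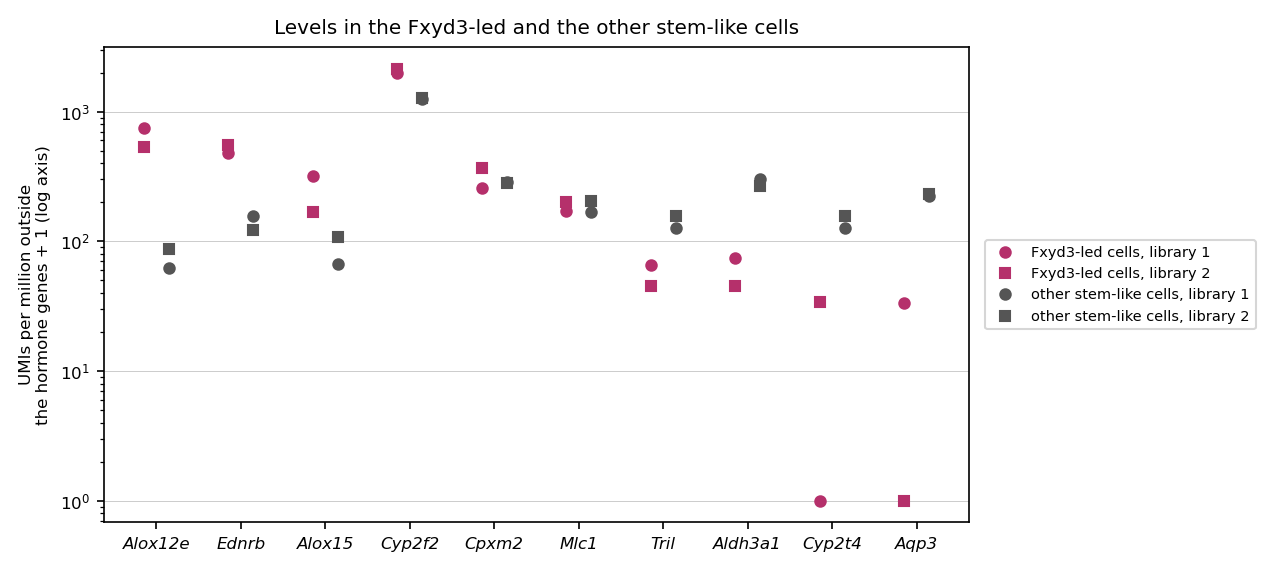
Level of each gene (CPM of UMIs outside the 7 hormone genes, 1 added, log axis) in the 27 Fxyd3-led cells and in the other 293 stem-like cells, with circles for library 1 and squares for library 2, ordered by ratio. Alox12e, Ednrb and Alox15 lie higher in the Fxyd3-led cells in both libraries, and Aqp3, Cyp2t4, Aldh3a1 and Tril lower.

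Relatives and partners of the 10 genes were listed by family, without the 10 themselves, and stem-like cells were tested against the mean of the 5 hormone classes on the log scale. A value in brackets after the levels is the log2 fold change. Of 195 listed genes 83 were abundant enough to test. Of these 43 were higher (51.8%) in stem-like cells, beside 30% of all genes tested, and 14 were lower (16.9%), beside 27.6% of all. The median log2 fold change was 0.69 over the relatives and -0.01 over all genes. The classes were formed from these cells, so the adjusted p-values, again edgeR's, compare clusters. The lists were chosen with earlier results of these data known, so their shares beside those of all genes are a description.

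Among 21 P450 genes and their electron donors, 11 were higher and 1 lower. Por, the reductase that passes electrons to P450 enzymes, had 155 ± 3.44 CPM in stem-like cells and 41.8 ± 1.95 CPM over the hormone classes, with a log2 fold change of 2.03 ± 0.09 (SE, adjusted p = 3.21e-41). Cyb5r3, a cytochrome b5 reductase, had 180 ± 5.15 CPM in stem-like cells and 72.2 ± 0.34 CPM over the hormone classes, with a log2 fold change of 1.39 ± 0.08. Cyp2d22 rose by a log2 fold change of 3.499 ± 0.30, to 20.3 ± 0.33 CPM in stem-like cells, and Cyp2j6 by 1.66 ± 0.21, to 24.6 ± 3.90 CPM. Endothelial-like cells had more Cyb5r3 (256 CPM) and Cyp2d22 (23.3 CPM) than stem-like cells.

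Of 18 lipoxygenase and prostanoid genes, 9 were higher and 3 lower. Ephx1, an epoxide hydrolase, had 54.0 ± 1.93 CPM in stem-like cells and 7.32 ± 1.28 CPM over the hormone classes, with a log2 fold change of 3.63 ± 0.17 (SE, adjusted p = 3.99e-39). Ptges3 was higher by a log2 fold change of 0.31 ± 0.09. Ptgds, a prostaglandin D synthase, was called higher (1.12 ± 0.14), but its plain mean was 46.5 ± 8.75 CPM in stem-like cells and 51.0 ± 2.43 CPM over the hormone classes, since the fit averages logarithms and melanotrope-like cells had 126 CPM.

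Of 13 aldehyde dehydrogenases, 7 were higher and 3 lower. Aldh1a2 had 408 ± 10.6 CPM in stem-like cells and 7.17 CPM over the hormone classes (7.74 ± 0.13, adjusted p = 3.77e-55). Aldh1a1, which also makes retinoic acid, had 96.0 ± 17.1 CPM in stem-like cells and 1.56 ± 0.19 CPM over the hormone classes (7.47 ± 0.22). Aldh2, the mitochondrial enzyme of acetaldehyde, had 291 ± 9.19 CPM in stem-like cells and 58.9 ± 2.94 CPM over the hormone classes (2.47 ± 0.08), and Aldh9a1 was higher by 0.48 ± 0.14 on the log2 scale. Aldh18a1, of proline synthesis, fell by 1.595 on the log2 scale and Aldh6a1, of valine breakdown, fell by 0.86.

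Of 7 partner genes of Mlc1, 5 were higher and 0 lower. Atp1b1, a subunit of the sodium pump, had 1335 ± 38.8 CPM in stem-like cells and 196 ± 1.33 CPM over the hormone classes, with a log2 fold change of 2.78 ± 0.06 (SE, adjusted p = 8.22e-74). The water channel Aqp4 had 49.2 ± 10.49 CPM in stem-like cells and 0.80 ± 0.23 CPM over the hormone classes (6.80 ± 0.27), and it was the only one of the 3 aquaporins tested that was called. Of 5 genes of the endothelin system, 3 were higher and 2 lower. Edn2, a ligand, had 87.3 ± 7.00 CPM in stem-like cells and 4.36 ± 0.61 CPM over the hormone classes (5.00 ± 0.17), and Ece1, which cleaves the precursor, had 336 ± 11.9 CPM in stem-like cells and 55.2 ± 0.05 CPM over the hormone classes (2.67 ± 0.08). Ece2 fell by 1.73 on the log2 scale. Ecel1 fell by 1.46, with 2.87 ± 0.09 CPM in stem-like cells and 33.4 ± 0.71 CPM over the hormone classes, but its log2 fold change was 0.33 (adjusted p = 0.27, edgeR) when cells were clustered on variable genes.

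Of 10 Toll-like receptor partners of Tril, 6 were higher and 3 lower. Lbp, which carries lipopolysaccharide, had 70.2 ± 1.36 CPM in stem-like cells and 2.09 ± 0.10 CPM over the hormone classes (5.51 ± 0.19), while fibroblast-like cells had 242 CPM. Of 7 carboxypeptidases of the M14 family, 2 were higher and 2 lower. Each is 28.6%, near the 30% higher and 27.6% lower of all genes tested. Cpd rose by 2.14 ± 0.16 on the log2 scale, and Cpe, which trims prohormones, had 208 ± 15.5 CPM in stem-like cells and 788 ± 9.69 CPM over the hormone classes (fell by 1.87 on the log2 scale). Cpq fell by 0.62.

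**Figure D5:**
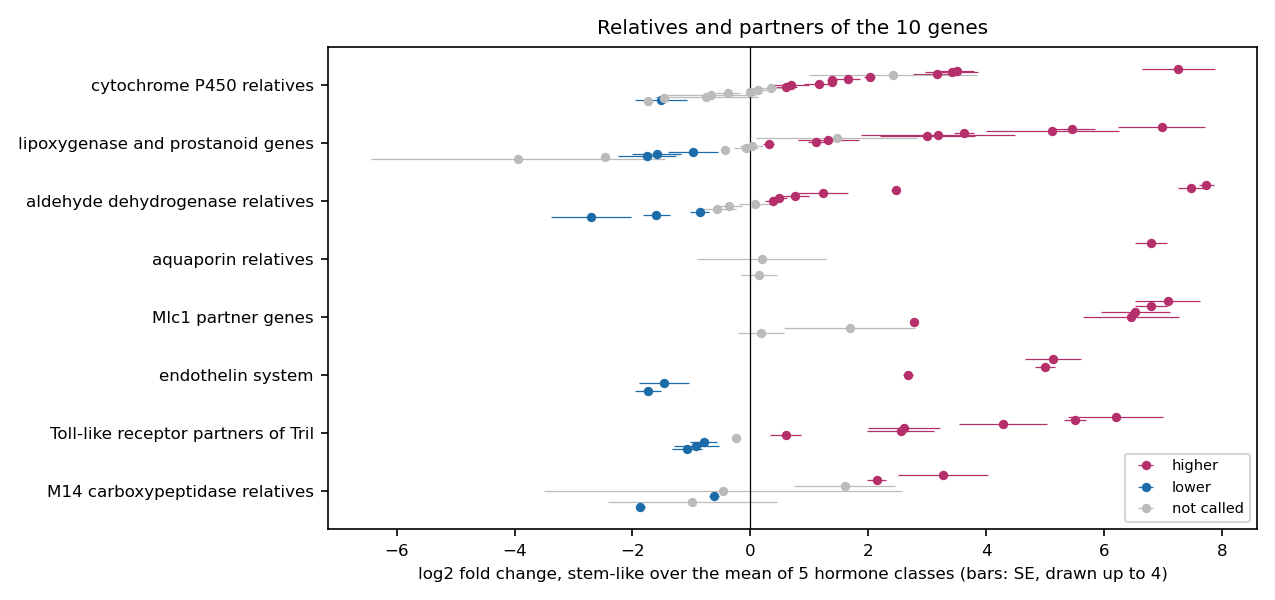
Log2 fold change of each tested relative or partner of the 10 genes, stem-like cells over the mean of the 5 hormone classes, by family (points; bars are standard errors, cut off at 4 and left out where undefined). Higher genes number 43, lower genes 14 and genes not called 26.

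Genes next to the 10 on the chromosome were also read. Of 27 tested neighbours within 100000 bases, 12 were higher in stem-like cells (44.4%, beside 30% of all genes) and 4 were lower (14.8%, beside 27.6%). The following 3 were singled out after their values were seen. Mia, which lies 21074 bases from Cyp2t4 and 46082 from Cyp2f2, had 3151 CPM in library 1 and 3287 CPM in library 2 in stem-like cells, and 56.0 and 50.1 CPM over the hormone classes. Its log2 fold change was 6.87 ± 0.23 (edgeR, adjusted p = 1.46e-10). Slc16a11, a carrier of monocarboxylates 99193 bases from Alox12e, had 111 and 106 CPM in stem-like cells and 5.86 and 4.51 CPM over the hormone classes. Alox12, a lipoxygenase 60257 bases from Alox12e, had 8.84 and 5.03 CPM in stem-like cells and was highest in endothelial-like cells, at 26.8 CPM.

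Over the 22 columns of class and library, the genes whose levels ran most like those of the 10 were found by Pearson's correlation of log2(CPM + 1) among 9513 genes. The columns share their libraries and the classes that define them, so these values are descriptions. Cyp2t4 was the closest to Cyp2f2 (0.95), Alox15 (0.99) and Alox12e (0.98), and Agr3 was the next for Cyp2f2 (0.95) and Alox15 (0.98). Cyp2t4 itself was closest to Slc5a7 and Degs2 (0.99 each), and Degs2 was also the second for Alox12e (0.98) and Aldh3a1 (0.95). Aldh3a1 was closest to P2rx2 (0.96), and Aqp3 to Alox12e (0.98) and Klhl31 (0.97). The genes shared with supporting cells had other companions. Mlc1 was closest to Slc39a12 and Erbb4 (0.97 each), Cpxm2 to Capn6 (0.98), Tril to Rbpms (0.96) and St6galnac2 (0.95), and Ednrb to Cbr2 and Fam101b (0.91 each).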

How the data were processed

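The authors deposited a matrix of raw UMI counts, for which the submitters' processing notes name Cell Ranger, STAR and the mm10 build but no versions. Barcode suffixes were read as pool numbers. The members and gene lists were chosen with earlier results of these data known.

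Barcodes were kept from 500 UMIs and 250 genes upwards, if mitochondrial UMIs made up no more than 20%. Scrublet (in scanpy 1.11.5) called 2 and 6 doublets, so the 7.6% of cells with the highest scores were removed (494 and 537). Cells were clustered on marker genes with 15 components and Leiden at resolution 1 (leidenalg 0.10.2). Clusters were named from at least 3 markers by the mean relative level of a class's markers, a rule set after the data were seen, and 999 cells stayed unnamed. A second clustering on 2000 variable genes gave the same class for 94.7% of 11535 cells named both ways.

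Counts were summed per class and library and fitted with edgeR 4.0.16 (quasi-likelihood, TMM, library as a block, 22 columns, 10 residual degrees of freedom) at an adjusted p of 0.05. With no second group, the pool number is the only block. On simulated counts of 10928 genes for stem-like against hormone classes, 100% of 2-fold higher and 86% of 2-fold lower genes were recovered. Each gene was drawn at 1 mean over all classes with 1 common spread. The changed genes were taken from those with over 20 expected counts in stem-like columns. These rates therefore do not cover rarer or more variable genes. Named relatives are, per list, up to 4 higher and 2 lower genes with at least 20 CPM on the higher side, by fold change. Some items that these rules name are not reported here. Alternatives include DESeq2 1.42.0. Intervals and limits of 0 counts cover counting error only.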

Additional observations from a re-analysis of the deposited data

How the results depend on the processing

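Of the counts of genes called, those of relatives higher (41 to 47) and lower (10 to 14) in stem-like cells stayed within 1.5 times the reported 43 and 14 under DESeq2, without a filter, without the replicate block (43 and 13), without the hormone genes in the totals, with doublet calls kept, at Leiden resolutions of 0.5 and 2, with clustering on variable genes, and for the cells that both clusterings placed in the same class, an alternative added after seeing the data. The number of genes among Mlc1, Cpxm2, Tril and Ednrb higher in pituicyte-like (2), fibroblast-like (2) and macrophage-like cells (0) was the same under all of these. In endothelial-like cells there were 2 in place of 1 without a filter, at a resolution of 2, with clustering on variable genes and for cells placed alike, the added one being Tril; the cause was not tested. In macrophage-like cells 2 genes were lower with doublet calls kept, with clustering on variable genes and for cells placed alike, in place of 0. Ecel1 turned to a log2 fold change of 0.33 with clustering on variable genes. The other 206 values of named relatives kept their direction and call. The members detected per Sox2 cell, 1.78, were 3.55 without thinning, 1.06 at 1000 UMIs of any gene, 1.71 with doublet calls kept, 3.10 in stem-like cells and 1.76 to 1.79 with 1 library left out. Leaving out a library gives no test, because no residual degrees of freedom remain. The values of pituicyte-like cells (55) and Fxyd3-led cells (27) rest on few cells.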
